A study of Mus musculus with 15 samples.

Results

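Autophagy is the route by which a cell encloses part of its own cytoplasm in a double membrane and delivers it to the lysosome for breakdown, and mitophagy is the form of it that takes mitochondria. A kinase complex around ULK1 starts the process, a lipid kinase complex with Beclin 1 marks the membrane, small proteins of the LC3 and GABARAP families are coupled to the growing membrane, and receptors such as p62 tie cargo to them. In skeletal muscle these genes are known for their transcription in fasting, disuse and exercise, and mitophagy is known for clearing damaged mitochondria in a tissue that depends on them.

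Transcript levels of 10 genes of this route were followed in the gastrocnemius, a calf muscle, of aged female mice. The 10 were chosen by name for their role and by no rule on measured values, but with earlier results of these data known. They were Ulk1, Becn1, Map1lc3a, Map1lc3b, Gabarapl1, Sqstm1, Bnip3, Bnip3l, Pink1 and Tfeb, out of 55450 genes in the count table, of which 16920 had enough reads to be tested. All 10 were among the tested genes, and the lowest read count of any of them in any mouse was 1060. A wider set of 77 genes in 10 groups of the pathway, which holds the 10 and 67 others, was used to place them, and all 77 were tested. This wider set was also listed with those earlier results known.

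RNA-seq was done on 15 aged mice (female C57BL/6JN, above 17 months of age), with 1 library a mouse. Mice with at most 1 positive frailty marker formed the Low frailty marked group (labelled robust) and mice with 2 or more the High frailty marked group (labelled frail). In each, sedentary Control mice were set beside Run mice, which ran downhill on a treadmill in 2 bouts and gave tissue 24 h after the last bout. There were 4 Low Control mice (D8, D9, D11 and D98), 4 Low Run mice (D57, D61, D66 and D68), 3 High Control mice (D23, D25 and D67) and 4 High Run mice (D49, D52, D53 and D62). Neither the labels nor the methods name an engineered allele or a drug given as treatment in any group. Frailty groups were set after the run from the marker totals, so they are strata of 1 cohort of aged mice and not a genetic or induced model.

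Total counts ran from 19395125 to 30699216 a mouse (median 25926420). Levels are given as CPM, the counts of a gene per 1000000 counts of the library after TMM scaling. Sums of marker genes, also written as CPM here and below, are per 1000000 total counts without TMM scaling. Mice are ranked on that scale for such sums, and the ranks may differ after TMM scaling. The 6 muscle fibre marker genes summed to between 109200 and 152700 CPM in every mouse, and none of them was at 0 in any mouse. Mice D9 (Low Control) and D62 (High Run) stood apart from the other 13. On the first principal component of the variance-stabilized values, which held 34.5% of the variance, they lay at -71.4 and -46.7, and the other mice lay between -13.8 and 17.7. Before TMM scaling these 2 mice also had the lowest muscle fibre sums, 111700 CPM in D9 and 109200 CPM in D62. Their totals, 25992635 and 30699216 counts, were not low. Results that rest on them are given with and without them. In bulk muscle, fewer cells of a type and less RNA per cell cannot be told apart.

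The genes lie on separate parts of the genome (GRCm38, GENCODE M21 annotation, whole gene bodies, all protein coding). Ulk1 is at chr5:110784488-110810097 on the minus strand, Becn1 at chr11:101285952-101302286 on the minus strand and Map1lc3a at chr2:155276297-155278073 on the plus strand. Map1lc3b is at chr8:121590361-121598760 and Gabarapl1 at chr6:129533160-129542346, both on the plus strand, and Sqstm1 is at chr11:50199366-50210827 on the minus strand. Bnip3 is at chr7:138890836-138909519, Bnip3l at chr14:66985239-67008877 and Pink1 at chr4:138313409-138326307, all on the minus strand. Tfeb is at chr17:47737030-47792419 on the plus strand.

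In 5 of the 10 genes the 2 highest of the 15 mice were D9 and D62, against 13.4% of all genes. The sequences just upstream of the start of these 5 are shown, picked for that ranking alone. Whether the 5 moved together as a set was not tested. The sequences were read 5' to 3' on the gene's own strand (RefSeq, GRCm38.p6) and end at the base before the gene body given above. That body starts 16 bases before the RefSeq start for Ulk1, 77 for Map1lc3b, 32 for Gabarapl1, 7 for Sqstm1 and 13 for Bnip3. Capitals mark the only match to a searched motif.
Ulk1 (chr5:110810098-110810331, minus strand): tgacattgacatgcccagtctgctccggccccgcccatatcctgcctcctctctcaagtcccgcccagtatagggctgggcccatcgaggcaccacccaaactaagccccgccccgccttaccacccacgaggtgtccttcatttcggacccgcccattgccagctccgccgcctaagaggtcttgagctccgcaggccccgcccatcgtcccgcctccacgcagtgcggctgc
Map1lc3b (chr8:121590188-121590360, plus strand): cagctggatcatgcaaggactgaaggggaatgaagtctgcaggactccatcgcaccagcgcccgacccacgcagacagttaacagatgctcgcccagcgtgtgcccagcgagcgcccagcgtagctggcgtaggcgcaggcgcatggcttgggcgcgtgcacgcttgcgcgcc
Gabarapl1 (chr6:129532942-129533159, plus strand): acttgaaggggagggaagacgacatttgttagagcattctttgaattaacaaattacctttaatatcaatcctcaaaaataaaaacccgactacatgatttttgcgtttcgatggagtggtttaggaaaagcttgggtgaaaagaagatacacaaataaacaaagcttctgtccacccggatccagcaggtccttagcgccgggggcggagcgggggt
Sqstm1 (chr11:50210828-50211070, minus strand): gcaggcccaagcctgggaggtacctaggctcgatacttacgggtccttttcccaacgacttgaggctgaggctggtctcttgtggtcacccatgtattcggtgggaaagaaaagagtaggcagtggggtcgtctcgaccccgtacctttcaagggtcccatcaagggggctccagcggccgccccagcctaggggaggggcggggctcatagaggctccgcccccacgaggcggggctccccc
Bnip3 (chr7:138909520-138909756, minus strand): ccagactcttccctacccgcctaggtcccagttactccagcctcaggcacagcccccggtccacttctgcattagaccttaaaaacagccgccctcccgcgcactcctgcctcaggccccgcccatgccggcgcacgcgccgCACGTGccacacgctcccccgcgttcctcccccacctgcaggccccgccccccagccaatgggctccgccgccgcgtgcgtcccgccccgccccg

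Windows of 300 bases, from 250 before to 50 after a RefSeq start, were searched on both strands for 4 short motifs. They were found for 7 of the 10 genes in the RefSeq table (9 windows, since Tfeb had 3), and Becn1, Map1lc3a and Bnip3l were not matched. The E-box core CACGTG, which the TFEB family is known to bind, was present in 1 of the 7, Bnip3, beginning 108 bases before the RefSeq start and 95 bases before the gene body, and in 7.15% of all 32851 windows. The hypoxia response core ACGTG also matched Bnip3 alone, on both strands inside that same palindrome, against 19.6% of all windows. The antioxidant response core TGACNNNGC matched Map1lc3b alone, from base 5 after the RefSeq start and so outside the stretch printed, against 12.4% of all windows. The FoxO motif GTAAACA matched none of the 7, against 3.65% of all windows. Each match is a match of letters and says nothing of binding.

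The 10 genes differed widely in level. Divided by the length of all exons of the gene, Pink1 was highest, with a median over the 15 mice of 395.4 CPM per kb (range 282.7 to 526.4), and Becn1 lowest, with 11.2 CPM per kb (range 9.91 to 12.0). Between them the medians were 245.0 for Map1lc3a, 210.3 for Sqstm1, 63.3 for Bnip3, 43.7 for Gabarapl1, 21.9 for Map1lc3b, 20.2 for Tfeb, 13.5 for Bnip3l and 13.2 for Ulk1, all in CPM per kb. Some neighbours in this order were not separated. Map1lc3a was above Sqstm1 in 9 of 15 mice, Map1lc3b above Tfeb in 9 of 15, Bnip3l above Ulk1 in 5 of 15 and Ulk1 above Becn1 in 12 of 15. Tfeb was above Bnip3l in 14 of 15 mice, and the other 4 neighbouring pairs kept their order in 15 of 15. The exon length counts every annotated exon (7517 bases for Map1lc3b and 7065 for Becn1), so genes with long rarely used exons come out low on this scale.

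They also differed in how far they ranged over the mice. The highest mouse was 1.21 times the lowest for Becn1, 1.58 times for Tfeb, 1.86 times for Pink1 and 1.92 times for Map1lc3a. For Bnip3l the span was 2.23-fold, for Map1lc3b 2.82-fold and for Sqstm1 3.39-fold. Gabarapl1 spanned 4.75-fold, Bnip3 5.06-fold and Ulk1 7.75-fold. The highest mouse of Ulk1, Gabarapl1 and Sqstm1 was D9, and that of Bnip3, Map1lc3b and Bnip3l was D62.

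**Figure D1:**
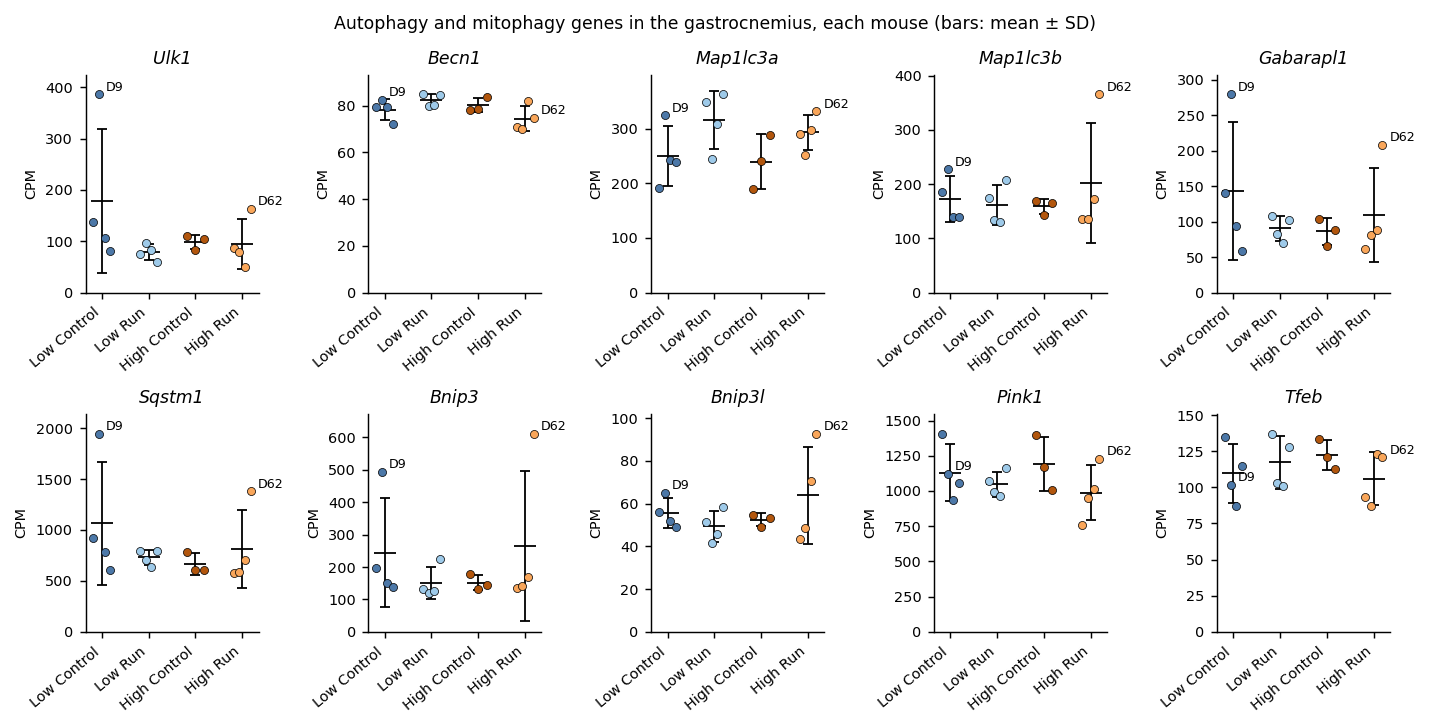
Levels of the 10 genes in CPM (vertical axes, starting at 0) in each of the 15 mice by group, with the mean and SD of each group as bars. D9 and D62 lie far above the rest of their groups in Ulk1, Gabarapl1, Sqstm1 and Bnip3, while Becn1 spans 70.0 to 84.8 CPM over all mice.

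No gene was called at a false discovery rate (FDR) of 0.1 in any of the 5 comparisons, by edgeR's quasi-likelihood test with Benjamini-Hochberg adjustment over the 16920 genes. The share of all genes called was therefore 0% in each, and the 10 genes had no call either. Their lowest adjusted p was 0.358. DESeq2 called 10 genes in Low Run against Low Control and 15 in High Run against High Control, none of them among the 10, and 0 in the other 3 comparisons. The share of all tested genes with an unadjusted p under 0.05 was 13.4% for Low Run against Low Control, 5.18% for High Run against High Control, 7.93% for the difference between these 2 running responses (the interaction), 5.86% for High Control against Low Control and 2.51% for High Run against Low Run. Of the 50 tests of the 10 genes, 2 had an unadjusted p under 0.05. They were Ulk1 in Low Run against Low Control and Bnip3 in the interaction. In no comparison of 2 groups did the mice of the groups separate for any of the 10 genes. Over all genes the groups did not overlap in 6.93% for Low Run against Low Control, 7.07% for High Run against High Control, 10.4% for High Control against Low Control and 1.5% for High Run against Low Run.

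Ulk1 encodes the kinase that starts autophagy. Its level was 136.7, 386.3, 107.2 and 81.8 CPM in the Low Control mice D8, D9, D11 and D98, and 74.4, 95.9, 83.3 and 59.2 CPM in the Low Run mice D57, D61, D66 and D68. It was 109.9, 83.4 and 104.1 CPM in the High Control mice D23, D25 and D67, and 86.0, 79.9, 49.8 and 163.6 CPM in the High Run mice D49, D52, D53 and D62. D9 was 3.61 times the median of the other 3 Low Control mice, and D62 was 2.05 times that of the other 3 High Run mice. The mean was 178.0 ± 140.7 CPM (SD over 4 mice) in Low Control and 78.2 ± 15.4 CPM (4 mice) in Low Run, and in High mice it was 99.1 ± 13.9 CPM (3 mice) without and 94.8 ± 48.5 CPM (4 mice) with running. In Low mice the log2 fold change of Run against Control was -1.19 ± 0.42 (SE), with an unadjusted edgeR p of 0.0123 and an adjusted p of 0.358. Without D9 it was -0.48 ± 0.30 (edgeR adjusted p = 0.836), and without both D9 and D62 it was -0.48 ± 0.22 (edgeR adjusted p = 0.650). In High mice it was -0.06 ± 0.45, and -0.47 ± 0.23 without the pair (edgeR adjusted p = 0.743). The Ulk1 difference in Low mice thus kept its sign in the mice that remained, at less than the -1.19 seen with all of them.

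The other 4 genes of the ULK initiation complex were Ulk2, Atg13, Rb1cc1 and Atg101. In Low Run against Low Control, 2 of the 5 genes of the complex, Ulk1 included, had an unadjusted p under 0.05, both lower after running. The share over all genes there was 13.4%. Atg13, a scaffold that binds ULK1, was 64.8, 133.2, 58.6 and 50.6 CPM in Low Control mice and 40.02, 46.3, 46.1 and 46.7 CPM in Low Run mice. These 2 groups did not overlap, and the log2 fold change was -0.78 ± 0.26 (edgeR adjusted p = 0.358) with all mice and -0.38 ± 0.13 without D9 and D62 (edgeR adjusted p = 0.650). Ulk2, a kinase related to ULK1, was 134.4, 131.8 and 132.0 CPM in High Control mice and 123.5, 95.3, 86.2 and 64.3 CPM in High Run mice. D62 was the lowest of the 15 mice for Ulk2, where it was the second highest for Ulk1. The Ulk2 log2 fold change in High mice was -0.52 ± 0.19 (edgeR adjusted p = 0.956), and -0.39 ± 0.15 without both mice (edgeR adjusted p = 0.650).

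Becn1 encodes Beclin 1, a subunit of the lipid kinase complex that nucleates the membrane. Its level was 79.3, 82.5, 79.3 and 72.1 CPM in Low Control mice, 84.8, 79.8, 80.2 and 84.4 CPM in Low Run, 78.1, 78.6 and 83.7 CPM in High Control and 70.9, 70.0, 82.1 and 74.8 CPM in High Run. D9 and D62 lay inside the range of the other mice or next to it, at 1.04 and 1.05 times the median of the other 3 in their groups. The log2 fold changes were 0.07 ± 0.10 in Low mice and -0.11 ± 0.11 in High mice, both smaller than or close to their errors. Becn1 had the narrowest range over mice of the 10. Of the 8 genes of its complex, 3 had an unadjusted p under 0.05 in Low Run against Low Control, all lower, and 0 of 8 in High Run against High Control. Over all genes the shares were 13.4% and 5.18%. Without D9 and D62 there were 0 of 8 in both comparisons.

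Map1lc3a, Map1lc3b and Gabarapl1 encode 3 of the ubiquitin-like proteins that are coupled to lipid on the autophagosome membrane. Map1lc3a was 191.3, 324.6, 243.1 and 239.9 CPM in Low Control mice and 349.0, 244.7, 308.6 and 363.1 CPM in Low Run mice. In High Control it was 189.3, 241.3 and 289.3 CPM, and in High Run 290.4, 252.6, 298.0 and 332.2 CPM. The Run mean was the higher in both strata, 316.3 ± 53.1 against 249.7 ± 55.3 CPM in Low mice (n = 4 each) and 293.3 ± 32.7 (n = 4) against 240.0 ± 49.99 CPM (n = 3) in High mice, but the groups overlapped in both. The log2 fold changes were 0.34 ± 0.18 (edgeR adjusted p = 0.394) and 0.29 ± 0.20 (edgeR adjusted p = 0.956). D9 was the highest Low Control mouse, and without both D9 and D62 the Low difference was 0.48 ± 0.17 (edgeR adjusted p = 0.650), larger than with them. The High difference without them was 0.22 ± 0.17 (edgeR adjusted p = 0.886). With offsets for gene length and GC, and all mice kept, the Low difference was only 0.09 (edgeR adjusted p = 0.861).

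Map1lc3b behaved otherwise. It was 185.5, 227.0, 139.2 and 139.2 CPM in Low Control mice and 174.2, 134.0, 129.7 and 208.4 CPM in Low Run mice. It was 168.8, 143.2 and 164.8 CPM in High Control mice and 136.0, 135.9, 171.7 and 365.4 CPM in High Run mice. The High Run mean was 202.3 ± 110.1 CPM (SD, n = 4), with D62 at 2.69 times the median of the other 3. The log2 fold change in High mice was 0.35 ± 0.31 (edgeR adjusted p = 0.958) with D62 and -0.11 ± 0.21 without it (edgeR adjusted p = 1.000). In Low mice it was -0.10 ± 0.28 (edgeR adjusted p = 0.891).

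Gabarapl1 was 140.5, 279.5, 94.3 and 58.9 CPM in Low Control mice and 108.0, 82.0, 70.0 and 102.1 CPM in Low Run mice. In High Control it was 104.3, 66.1 and 88.0 CPM, and in High Run 61.3, 81.4, 87.5 and 208.2 CPM. D9 and D62 were 2.96 and 2.56 times the median of the others in their groups, and every other mouse lay between 58.9 and 140.5 CPM. The log2 fold changes were -0.66 ± 0.42 in Low mice (edgeR adjusted p = 0.454) and 0.35 ± 0.45 in High mice (edgeR adjusted p = 0.965). Without both mice they were -0.12 ± 0.25 and -0.18 ± 0.27. The ATG8 family adds Gabarap and Gabarapl2 to these 3. Of its 5 genes, 0 had an unadjusted p under 0.05 in any of the 5 comparisons with all mice. Without D9 and D62, 1 had such a p in Low mice, Map1lc3a, against 7.33% of all genes in that fit.

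Sqstm1 encodes p62, a receptor that binds ubiquitin-tagged cargo and LC3 and is itself degraded with the cargo. It was 918.0, 1946, 785.5 and 611.1 CPM in Low Control mice, 792.7, 705.6, 638.3 and 792.9 CPM in Low Run, 785.4, 602.3 and 609.4 CPM in High Control and 573.7, 589.7, 704.2 and 1380 CPM in High Run. D9 was 2.48 and D62 2.34 times the median of the others in its group, and no other mouse was above 918.0 CPM. The log2 fold changes were -0.54 ± 0.32 in Low mice (edgeR adjusted p = 0.437) and 0.29 ± 0.35 in High mice (edgeR adjusted p = 0.965). Without both mice they were -0.09 ± 0.15 and -0.10 ± 0.16. Of the 6 cargo receptors listed, all 6 had a log2 fold change below 0 in Low mice and all 6 above 0 in High mice. Of all 16920 genes, 8145 were below 0 in Low mice and 9676 above 0 in High mice. The receptors were read in the same libraries and are not independent of each other. At an unadjusted p under 0.05 there were 1 and 0 of the 6 receptors, against 13.4% and 5.18% of all genes. Without both mice all 6 were still below 0 in Low mice, while in High mice 2 were above 0 and 4 below.

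Bnip3 and Bnip3l (also called NIX) encode related receptors in the outer mitochondrial membrane that bind LC3 and GABARAP proteins directly, and both are known targets of hypoxia signalling. Bnip3 was 196.0, 493.6, 150.0 and 139.0 CPM in Low Control mice and 130.8, 120.8, 125.4 and 224.5 CPM in Low Run mice. It was 178.9, 133.6 and 143.3 CPM in High Control mice and 135.2, 142.9, 170.0 and 611.6 CPM in High Run mice. D62 was 4.28 times the median of the other 3 High Run mice, the largest such ratio among the 10 genes in either mouse, and D9 was 3.29 times that of the other 3 Low Control mice. The log2 fold change was -0.70 ± 0.48 in Low mice (edgeR adjusted p = 0.480) and 0.80 ± 0.52 in High mice (edgeR adjusted p = 0.956). Each rested on 1 mouse, since the Low value was -0.11 ± 0.43 without D9 and the High value -0.03 ± 0.39 without D62.

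The difference between these 2 responses, 1.504 ± 0.71 on the log2 scale, had an unadjusted edgeR p of 0.04998 and an adjusted p of 0.600. It was 0.91 ± 0.62 without D9 (edgeR adjusted p = 0.918), 0.68 ± 0.51 without D62 (edgeR adjusted p = 0.832) and 0.08 ± 0.30 without both (edgeR adjusted p = 0.995). Bnip3l was lower and steadier, at 56.1, 65.03, 52.01 and 49.1 CPM in Low Control mice, 51.6, 41.6, 45.8 and 58.5 in Low Run, 54.9, 49.03 and 53.5 in High Control and 43.6, 48.5, 70.7 and 92.8 in High Run. D62 was again the highest, at 1.92 times the median of the other 3. Its log2 fold changes were -0.17 ± 0.20 in Low mice and 0.28 ± 0.22 in High mice.

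Pink1 encodes a kinase that builds up on damaged mitochondria and recruits Parkin. It was 1407, 1124, 936.3 and 1057 CPM in Low Control mice and 1074, 996.1, 963.7 and 1162 CPM in Low Run mice. It was 1394, 1170 and 1010 CPM in High Control mice and 755.8, 953.5, 1015 and 1228 CPM in High Run mice. D9 and D62 were 1.06 and 1.29 times the median of the others in their groups, so the gene did not share the excess seen for Bnip3. The log2 fold changes were -0.11 ± 0.17 in Low mice (edgeR adjusted p = 0.764) and -0.27 ± 0.18 in High mice (edgeR adjusted p = 0.956), and the High value was -0.40 ± 0.17 without both D9 and D62 (edgeR adjusted p = 0.703). Of the 11 mitophagy receptors and regulators, 0 had an unadjusted p under 0.05 in either comparison of Run with Control, and 2, Pink1 included, had one in High mice without D9 and D62, both lower after running, against 6.85% of all genes in that fit.

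Tfeb encodes a transcription factor that drives lysosomal and autophagy genes, and it is controlled largely by where the protein sits in the cell, which RNA does not show. Its level was 135.0, 101.9, 87.2 and 114.8 CPM in Low Control mice, 137.1, 103.0, 100.7 and 128.2 CPM in Low Run, 133.2, 121.1 and 112.8 CPM in High Control and 93.4, 86.9, 122.7 and 120.8 CPM in High Run. D9, the highest mouse for 3 of the 10 genes, was the 11th of 15 for Tfeb, at 0.888 times the median of the other 3 Low Control mice. The log2 fold changes were 0.10 ± 0.16 in Low mice and -0.21 ± 0.18 in High mice.

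Frailty marking was compared in Control mice and in Run mice. In High Control against Low Control the log2 fold changes of the 10 ran from -0.84 for Ulk1 to 0.16 for Tfeb, with 0 of 10 at an unadjusted p under 0.05, and without D9 that of Ulk1 was -0.14 ± 0.33. In High Run against Low Run they ran from -0.15 for Tfeb to 0.82 for Bnip3, again with 0 of 10, and without D62 that of Bnip3 was -0.01 ± 0.36. Low Control and High Run, the groups with D9 and D62, each enter more than 1 of these comparisons, so the comparisons are not independent of each other.

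The members were read against the pathway and against all genes. In Low Run against Low Control the median log2 fold change was -0.14 for the 10, -0.22 for the 67 other pathway genes and 0.02 for all 16920. In High Run against High Control the medians were 0.29, 0.03 and 0.05 in the same order, and for the interaction 0.45, 0.28 and 0.03. Without both D9 and D62 the medians in that order were -0.09, -0.10 and 0.02 in Low mice, -0.11, -0.06 and 0.01 in High mice, and -0.11, 0.03 and 0.0005 for the interaction. With all mice, Map1lc3b, Gabarapl1, Sqstm1, Bnip3 and Bnip3l had a negative run difference in Low mice and a positive one in High mice. In the other 13 mice this was left for Bnip3l alone of the 5, at -0.10 ± 0.16 and 0.04 ± 0.17.

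**Figure D2:**
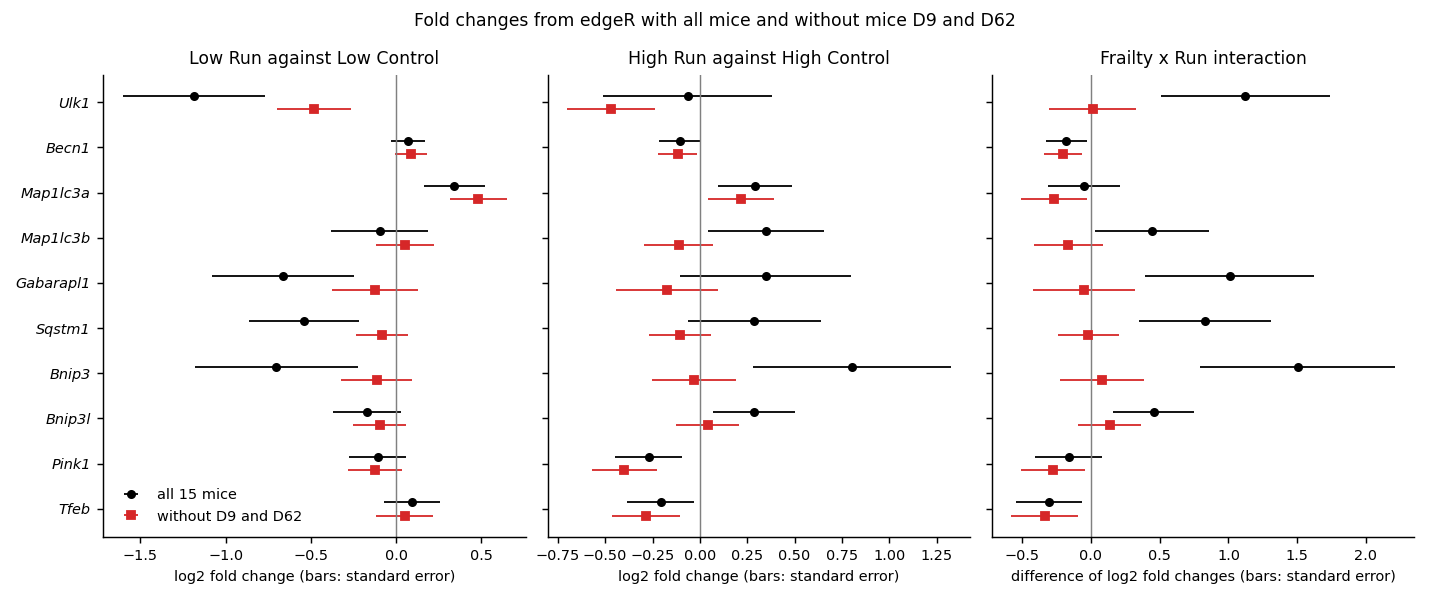
Log2 fold changes (horizontal axes) of the 10 genes for Run against Control in Low mice, in High mice, and their difference, with standard errors, from edgeR on all 15 mice (black circles) and without D9 and D62 (red squares). The interaction of Bnip3 moved from 1.504 to 0.08 and that of Ulk1 from 1.122 to 0.01, while Becn1 went from -0.18 to -0.20, Tfeb from -0.30 to -0.34 and Pink1 from -0.16 to -0.28.

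Among the 67 other pathway genes, 15 had an unadjusted p under 0.05 in Low Run against Low Control, 2 higher and 13 lower, against 13.4% of all genes. Without both D9 and D62 there were 8, 1 higher and 7 lower, against 7.33% of all genes. For High Run against High Control there was 1 (Ulk2), against 5.18% of all genes, and 2 without both mice, against 6.85%. In the interaction there were 10 (7 above 0 and 3 below), against 7.93%, and 6 without both, against 4.42%. In High Control against Low Control there were 5, all lower, against 5.86%, and 2 without both, against 3.8%. Between Run mice there was 1, against 2.51%, and 2 without both, against 2.73%. The counts were highest for autophagosome-lysosome fusion (4 of 6, 1 higher and 3 lower) and for the TFEB family and its regulators (4 of 8, all lower), both in Low Run against Low Control, and 0 of 10 lysosome genes reached that p there. Without D9 and D62 these became 2 of 6, 1 of 8 and 1 of 10, all lower.

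Epg5, a tether that joins autophagosomes to late endosomes and lysosomes, had the lowest p of the 67 in Low mice. It was 38.4, 54.2, 45.3 and 37.6 CPM in Low Control and 24.4, 29.1, 26.0 and 30.9 CPM in Low Run, groups that did not overlap. Low Run and Low Control did not overlap for 7 of the 67, against 6.93% of all genes. Epg5, Atg2b and Atg13 were named for their small p in that comparison, so their lack of overlap is no separate support. In High Control Epg5 was 34.1, 30.7 and 35.6 CPM, and in High Run 47.5, 38.2, 21.8 and 46.4 CPM. The log2 fold change in Low mice was -0.67 ± 0.20 (edgeR adjusted p = 0.358), and -0.56 ± 0.20 without both mice (edgeR adjusted p = 0.650). Its interaction was 0.87 ± 0.30 (edgeR adjusted p = 0.600), and 0.65 ± 0.29 without both (edgeR adjusted p = 0.984), and in High Run against Low Run it was 0.48 ± 0.20 (edgeR adjusted p = 0.999) with all mice, at an unadjusted p under 0.05, and 0.37 ± 0.21 without D62, no longer under it.

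Atg2b, a lipid transfer protein that feeds the growing membrane, was 27.5, 48.7, 32.8 and 31.8 CPM in Low Control and 19.3, 25.7, 24.8 and 21 CPM in Low Run, and these groups did not overlap either. It was 23.7, 24.3 and 22.6 CPM in High Control and 34.3, 29.5, 18.6 and 31.4 CPM in High Run. The log2 fold change in Low mice was -0.63 ± 0.20 (edgeR adjusted p = 0.358) and -0.44 ± 0.18 without both mice (edgeR adjusted p = 0.650). Its interaction was 0.91 ± 0.29 (edgeR adjusted p = 0.600) and 0.66 ± 0.26 without both (edgeR adjusted p = 0.984). In High Control against Low Control it was -0.58 ± 0.21 (edgeR adjusted p = 0.704), at an unadjusted p under 0.05, and without D9 it was -0.39 ± 0.19, no longer under it. In the 13 mice the interactions of Ulk1, Bnip3, Gabarapl1 and Sqstm1 lay between -0.05 and 0.08. Epg5 and Atg2b were named for a small p in the interaction with all mice. Their larger values in the 13 mice follow in part from that choice and show no contrast with the members. The median interaction of the 67 other pathway genes there was 0.03.

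Atp6v1h, a subunit of the proton pump that acidifies the lysosome, was highest in D62 and D9, as Bnip3 was. It was 31.9, 91.1, 30.0 and 20.6 CPM in Low Control, between 19.6 and 24.4 CPM in Low Run, between 20.5 and 21.2 CPM in High Control, and 23.3, 22.3, 24.3 and 94.4 CPM in High Run. Its interaction was 1.93 ± 0.70 (edgeR adjusted p = 0.600) with all mice and 0.45 ± 0.20 (edgeR adjusted p = 0.984) without D9 and D62. Fnip2 and Mitf, a partner of folliculin and a transcription factor of the TFEB family, had log2 fold changes in High Control against Low Control of -0.93 ± 0.30 (edgeR adjusted p = 0.704) and -0.58 ± 0.23 (edgeR adjusted p = 0.704). Without D9 these were -0.61 ± 0.26 and -0.27 ± 0.16.

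D9 and D62 were described each on its own against the other 3 mice of its group. In D9 the median ratio over the 10 genes was 1.49, over the 77 pathway genes 1.38 and over all genes 0.993. In D62 it was 1.97, 1.27 and 1.00. The ratio was over 1.5 for 5 of the 10 genes in D9, against 15.8% of all genes, and for 6 of the 10 in D62, against 12.8% of all genes. D9 was the highest of the 15 mice in 3 of the 10 and in 37 of the 77 pathway genes, against 22.7% of all genes, and D62 in 3 of the 10 and in 11 of the 77, against 10.8%. The 2 highest mice were D9 and D62, in either order, for 5 of the 10 (Ulk1, Map1lc3b, Gabarapl1, Sqstm1 and Bnip3), for 25 of the 67 other pathway genes and for 13.4% of all genes. Members were not independent of each other in this, since they were read in the same libraries.

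**Figure D3:**
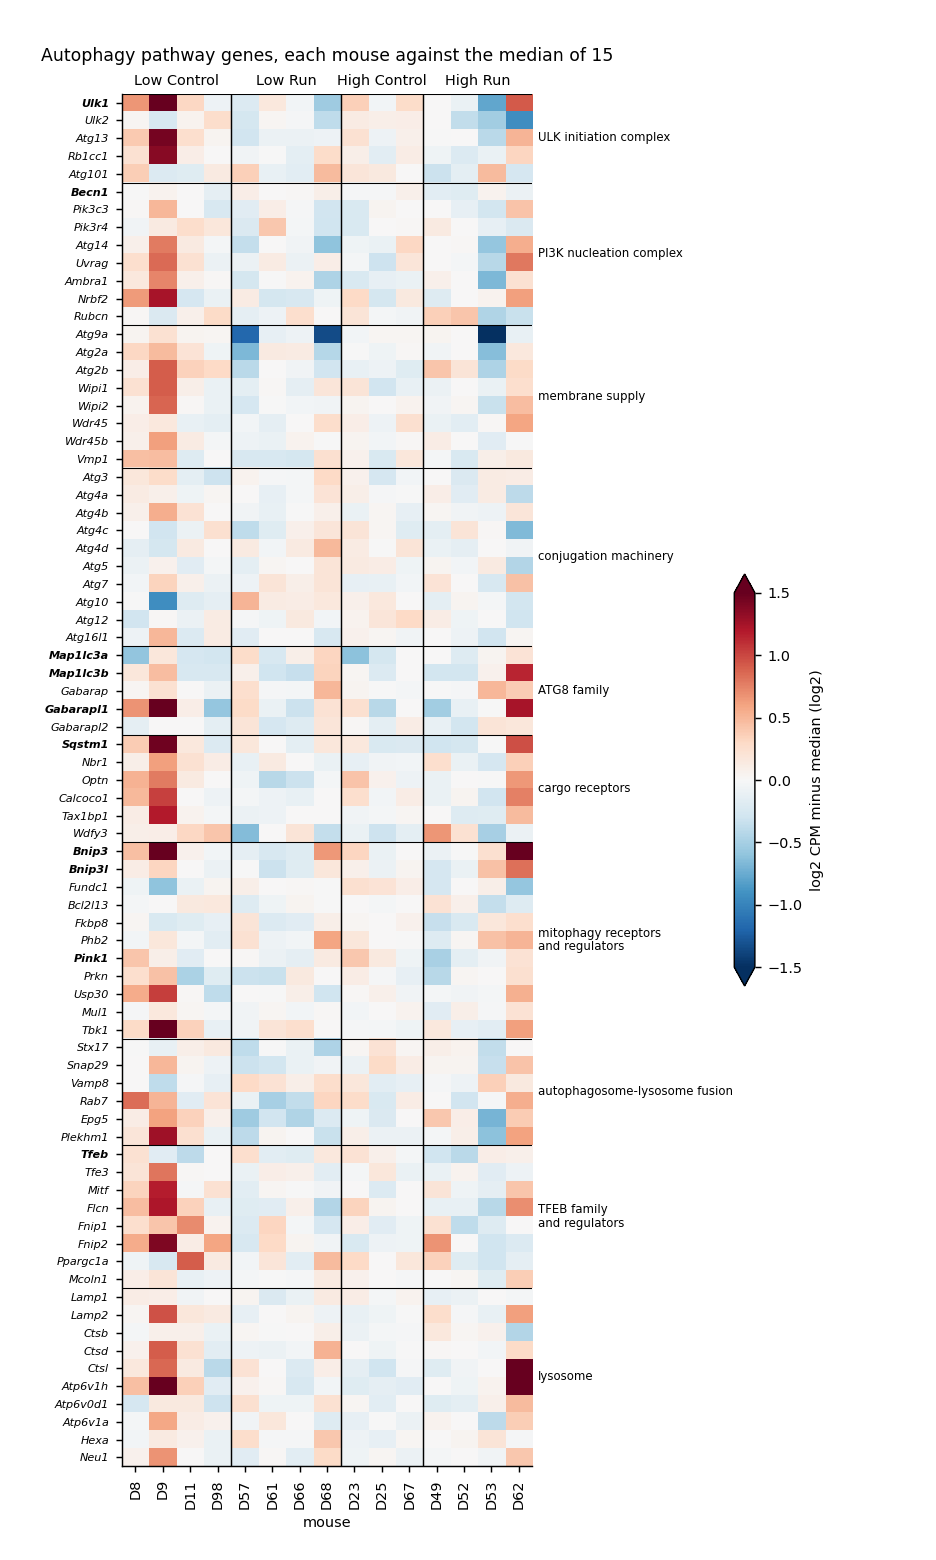
Log2 CPM of the 77 pathway genes (rows, by group of the pathway, the 10 genes in bold) in each mouse (columns, by group), as the difference from that gene's median over the 15 mice, with colours cut off at 1.5 on the log2 scale either way. The column of D9 is the darkest red, with 37 of 77 genes at their highest there, and that of D62 is red in a smaller set that holds Bnip3, Map1lc3b, Gabarapl1, Ctsl and Atp6v1h.

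Markers of other cell types were summed in these mice, again without TMM scaling. The summed level of 6 macrophage genes was 48.4 CPM in D9 and 60.9 CPM in D62, the 14th and 12th of 15, and that of 4 fibroblast genes was 626.0 and 559.5 CPM, the 14th and 15th. The 3 Schwann cell genes were highest of all mice in D62 (286.3 CPM) and 14th in D9 (88.3 CPM). The 6 slow fibre genes were highest in D62 (4510 CPM) and 13th in D9 (1934 CPM). The 4 neutrophil genes, of which Ly6g was at 0 in at least 1 of the 15 mice, were 14.0 CPM in D9, 4.53 in D62 and 354.4 in D68, the highest mouse.

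No marker gene was called at an FDR of 0.1 between groups. The marker counts are to be read beside the share of all genes with an unadjusted edgeR p under 0.05, in either direction. This share was 13.4% in Low Run against Low Control and 5.18% in High Run against High Control. It was 7.93% in the interaction, 5.86% in High Control against Low Control and 2.51% in High Run against Low Run. In High Run against High Control, 3 of 6 macrophage, 3 of 6 slow fibre, 3 of 3 erythroid and 1 of 3 Schwann genes had an unadjusted edgeR p under 0.05 and were higher after running. In Low Run against Low Control 2 of 6 macrophage genes did, also higher. Between Run mice (High against Low) it was 3 of 3 erythroid and 3 of 3 Schwann genes, all higher, and in the interaction 3 of 3 erythroid and 2 of 3 Schwann genes, all above 0. Summed macrophage levels ran from 37.4 to 67.4 CPM in High Control and from 60.9 to 143.2 CPM in High Run, and from 48.4 to 101.4 CPM in Low Control and 72.1 to 105.2 CPM in Low Run. The erythroid sums ran from 264.5 to 449.0 CPM in High Control and from 370.7 to 3557 CPM in High Run, the latter highest in D53, and in High Control against Low Control 3 of 3 erythroid and 1 of 6 macrophage genes had such a p, all lower. Of the 6 muscle fibre genes, 1 had such a p in each comparison of Run with Control, lower after running. The median log2 fold change of the 6 was 0.12 in Low mice and -0.22 in High mice. For endothelial genes 0 of 4 had such a p in any comparison, for satellite cell genes 1 of 3 (High Control against Low Control), and for adipocyte genes 1 of 4 (Low Run against Low Control). The marker tests were not repeated without D9 and D62, and D62 had the highest Schwann and slow fibre sums. The part of these markers in the levels of the 10 genes was not tested.

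Pairs of members were also compared across the 15 mice, on log2(CPM + 0.5) minus the group mean, with 100000 permutations (two-sided) and adjustment over 4 pairs. The centred values were shuffled over all mice and not within groups. This does not allow for the group means taken out, so the permutation p of the centred values may be too small. Pairs of other genes were not computed as a background. Bnip3 and Bnip3l, the related mitophagy receptors, had Pearson's r = 0.84 (permutation p = 1e-05, the smallest the resamples can give, adjusted p = 4e-05) and Spearman's rho = 0.82 (permutation p = 0.00031). Map1lc3b and Gabarapl1, from the LC3 and GABARAP branches, had r = 0.87 (permutation p = 4e-05, adjusted p = 8e-05) and rho = 0.86 (permutation p = 8e-05). Sqstm1 and Map1lc3b, receptor and partner, had r = 0.86 (permutation p = 6e-05, adjusted p = 8e-05) and rho = 0.89 (permutation p = 8e-05). The related Map1lc3a and Map1lc3b had the weakest relation, r = 0.47 (permutation p = 0.0739) and rho = 0.51 (permutation p = 0.0513).

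These relations were computed again without the mice that stand apart, and 3 of the 4 held. The 2 mice farthest from the median of the first gene were D9 and D62 for those 3 pairs, and r over the other 13 was 0.75 for Bnip3 with Bnip3l (permutation p = 0.00333), 0.77 for Map1lc3b with Gabarapl1 (permutation p = 0.00193) and 0.76 for Sqstm1 with Map1lc3b (permutation p = 0.0023). Since D9 and D62 had entered the group means, the means were also taken again without them, which gave r = 0.73 (permutation p = 0.00523), 0.74 (permutation p = 0.00364) and 0.74 (permutation p = 0.0042) in the same order. For Map1lc3a with Map1lc3b the mice left out were D9 and D8, with r = 0.50 (permutation p = 0.0770), and with the means taken again without D9 and D62 r was 0.23 (permutation p = 0.444). All pairs share libraries, so anything that acts on a whole library enters every one of them.

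**Figure D4:**
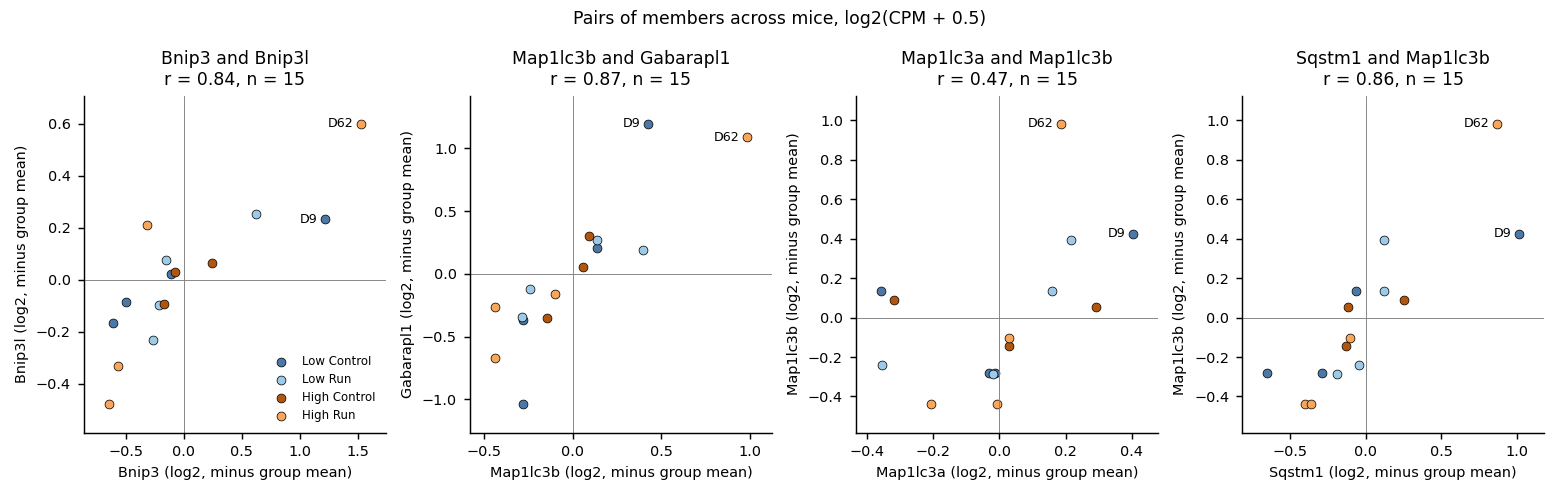
Each point is 1 mouse, coloured by group, at its log2(CPM + 0.5) minus the group mean for both genes of a pair (axes in log2 units), and r over 15 mice stands above each panel. D9 and D62 lie at the upper right in Bnip3 with Bnip3l, Map1lc3b with Gabarapl1 and Sqstm1 with Map1lc3b, and the other 13 mice rise in the same direction (r = 0.75, 0.77 and 0.76).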

How the data were processed

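Gastrocnemius RNA of 15 mice was sequenced as polyA libraries. Per the methods and the labels, the authors used STAR 2.7.9a and the mm10 build for alignment and counted uniquely aligned proper pairs on the gene's strand with featureCounts (Subread 2.0.3 per the submitters' processing notes; the methods name another version), and genes of the mitochondrial genome were left out. The deposited counts are whole reads per gene, not normalized. The authors also deposited log2-like variance-stabilized values made with DESeq2 (1.32.0 per the notes), used here only for the principal component and 1 alternative.

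Counts were tested with edgeR 4.0.16 in R 4.3.3 (TMM, filterByExpr, glmQLFit and glmQLFTest, 1 mean per group, all 15 mice in 1 fit), which kept 16920 of 55450 genes, with Benjamini-Hochberg adjustment over all of them and a threshold of 0.1. The common biological coefficient of variation was 0.266. Standard errors were taken as the log2 fold change over the root of F. The test was also run on simulated data in which no mouse stood apart, so that check does not cover mice such as D9 and D62. Mean ± SD are over mice, which are separate animals with no number shared between groups. The 10 genes and all gene lists were chosen with earlier results of these data known. Besides the 10, the text names pathway genes by a rule, up to 3 per comparison with the smallest edgeR p among those under 0.05 unadjusted. Motifs were searched in RefSeq promoter windows. Alternatives were DESeq2 1.42.0, RLE scaling, no filter, at least 10 counts in every mouse, only the groups compared, voom with sample weights and limma 3.58.1 on the deposited log2 values, offsets for length and GC (16901 genes), and each mouse left out. Leaving out D9 and D62 together was added after the data were seen. Correlations used SciPy 1.17.1.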

Additional observations from a re-analysis of the deposited data

Results flagged for a closer look

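Dixon's criterion is the gap to the nearest mouse over the range of the group. By it, 1 mouse lay far from the other 3 in 5 of 30 tests of the 10 genes in the groups of 4 mice. For normally distributed values chance gives about 1 in 20. The rate over all genes was not computed, so no excess particular to the 10 can be read from this. The ratio to the others of the group was over 1.5 for 15.8% of all genes in D9 and 12.8% in D62. In High Run, mouse D62 stood out for Bnip3 (611.6 CPM, against 135.2 to 170.0 in the other 3), for Map1lc3b (365.4 CPM, against 135.9 to 171.7) and for Sqstm1 (1380 CPM, against 573.7 to 704.2). In Low Control, mouse D9 stood out for Bnip3 (493.6 CPM, against 139.0 to 196.0). In Low Run, mouse D68 stood out for Bnip3 (224.5 CPM, against 120.8 to 130.8), and this mouse also had the highest summed neutrophil markers (354.4 CPM). The part of the markers in these values was not tested. The tests are not independent, since 3 of the 5 are from 1 library.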

How the results depend on the processing

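None of the 10 genes was called at an FDR of 0.1 under any of the 24 alternative settings, over 890 values, and their lowest adjusted p there was 0.121. Counts of calls over all genes, 0 in the reported fits, were 10 in Low Run against Low Control and 15 in High Run against High Control with DESeq2, 86, 19, 4 (interaction) and 6 (High Run against Low Run) with no filter on low counts, and 45 in High Run against High Control with voom. They were 0 in the other settings. The number of the 10 with an unadjusted p under 0.05 (1, 0, 1, 0 and 0 in the order of Low running, High running, interaction, Control mice and Run mice) was 4, 1, 4, 3 and 1 with no filter, 3 (High running) and 1 (Run mice) with voom, 2, 1 and 0 without D9 and D62 in the first 3, and 0 for the interaction with DESeq2, RLE, at least 10 counts, or limma on the deposited values. With 1 mouse left out it ran from 1 to 3, 0 to 1, 0 to 4, 0 to 3 and 0 to 1, and no gene of all was called in any comparison (0 to 0). The count was 3, 4 and 3 without D98 in Low running, the interaction and Control mice, 2 without D61 (Low running), D49 or D53 (interaction) and D11 (Control mice), 1 without D62 (High running) and D49 or D52 (Run mice), and 0 for the interaction without any of D8, D9, D57, D61, D66, D23, D25, D67 or D62. Signs turned as follows, with no cause tested. With length and GC offsets, Map1lc3b became 0.0995 (Low running) and 0.0012 (Control mice), and Map1lc3a 0.14 (interaction). With voom, High running became -0.11 for Map1lc3b, -0.0846 for Gabarapl1, -0.0645 for Sqstm1 and -0.051 for Bnip3l, the interaction -0.0514 for Map1lc3b, Control mice 0.0718 for Map1lc3a and 0.0557 for Map1lc3b, and Run mice -0.0464 for Gabarapl1 and -0.16 for Sqstm1. Without D9 and D62, Map1lc3b became 0.0524, -0.11, -0.16, 0.0331 and -0.13 in the 5 comparisons, High running became -0.18 for Gabarapl1, -0.10 for Sqstm1 and -0.0328 for Bnip3, the interaction -0.0505 for Gabarapl1 and -0.0191 for Sqstm1, Control mice 0.088 for Map1lc3a, and Run mice -0.13 for Ulk1, -0.24 for Gabarapl1, -0.24 for Sqstm1 and -0.0136 for Bnip3. With each mouse left out in turn, 27 of 555 log2 fold changes turned sign, with these ranges. In Low Run against Low Control these were Map1lc3b -0.25 to 0.052, Pink1 -0.20 to 0.013 and Tfeb -0.0095 to 0.21. In High Run against High Control these were Ulk1 -0.47 to 0.15, Map1lc3b -0.11 to 0.49, Gabarapl1 -0.18 to 0.54, Sqstm1 -0.10 to 0.42 and Bnip3 -0.033 to 1.01. In the interaction these were Map1lc3a -0.20 to 0.10 and Map1lc3b -0.0058 to 0.60. In High Control against Low Control these were Becn1 -0.0041 to 0.053, Map1lc3a -0.21 to 0.088, Map1lc3b -0.22 to 0.033 and Pink1 -0.053 to 0.20. In High Run against Low Run these were Ulk1 -0.13 to 0.49, Map1lc3b -0.13 to 0.47, Gabarapl1 -0.24 to 0.47, Sqstm1 -0.24 to 0.28, Bnip3 -0.014 to 1.07 and Pink1 -0.21 to 0.019. DESeq2, RLE, no filter, the stricter filter, limma on the deposited values and fits of only the 2 groups turned no sign. The interaction uses all 4 groups, so no fit of 2 groups exists for it. The 4 correlations kept their sign and their side of 0.05 in every alternative, including without centring by group. No paired analysis was possible because the groups share no replicate numbers. Each of the 10 genes had at least 1060 reads in each mouse, and the groups held 3 or 4 mice.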
